A study of Mus musculus with 57 samples.

Results

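The question was whether lithium changed gene expression in the prefrontal cortex of mice heterozygous for a Shank3 allele differently from wild-type (WT) mice. The quantity examined was an interaction, the lithium effect in heterozygous mice minus the lithium effect in wild-type mice, with females and males weighted equally. It draws on 36 of the 56 RNA-seq libraries analysed, which were chosen by their labels of genotype, drug and sex and not by any measured value. The heterozygous (HT) mice carried 1 copy of the Shank3 delta C allele, and all mice were of the C57BL/6J strain. Pups received lithium or vehicle through the milk of their mothers for 3 weeks, from postnatal day 3 to 24, and the prefrontal cortex was taken on postnatal day 25. There were 5 female and 4 male HT lithium libraries, 5 female and 3 male HT vehicle libraries, 4 female and 5 male WT lithium libraries, and 5 female and 5 male WT vehicle libraries. The drug reached the pups through a nursing mother, so littermates would share their exposure. The labels used here name no litter and no dose, so p-values treat libraries as independent and measure the spread between them.

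Lithium inhibits glycogen synthase kinase 3 (GSK3), which marks beta-catenin for destruction when Wnt signalling is off, and inositol monophosphatase, which recycles inositol for phosphoinositide signalling. Wnt signalling induces its own inhibitors, such as Nkd1 and Axin2, so the levels of such feedback genes are commonly read as a sign of pathway activity. Shank3 is a scaffold of the postsynaptic density of excitatory synapses, where it links glutamate receptor complexes to the actin cytoskeleton. An interaction of drug and genotype asks whether the same drug moved the same gene by a different amount in the 2 genotypes, which a gene's passing a threshold in only 1 of them does not answer.

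The libraries held between 22984556 and 35969254 recovered reads, which sets the counting error of each gene. Normalised counts are the read counts of a gene divided by a size factor of the library, and effects are differences of log2(normalised count + 1). A gene was called when its p in limma, adjusted over the 18026 genes tested by the method of Benjamini and Hochberg, was below 0.05, and every error given with a log2 difference is its SE. In counts over gene lists, members said to rise or fall are those called. A pair of libraries stood apart. HT vehicle female replicate 1 had choroid plexus markers at 22.9 times the mean library, against 0.469 to 0.615 in the other 4 libraries of its group, and HT lithium female replicate 5 had mitochondrially encoded transcripts at 0.330 of the mean library. Markers of neurons, astrocytes, oligodendrocytes, microglia and vessels were present. Of 13 marker lists and the lists of mitochondrially encoded and red cell genes, 0 held a gene at 0 in every library. The deposited values covered 10 of 12 choroid plexus and 14 of 15 deep-layer neuron markers. Of all 18088 genes in them 3 were at 0 throughout, so this count says little. The tissue was not sorted, so fewer cells of a type and less RNA per cell cannot be told apart in any value below.

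Shank3 itself (ENSMUSG00000022623, chr15:89499623-89560261, GRCm38) had 9949, 11196, 10002 and 10186 normalised counts in HT lithium males and 8208, 8048 and 7507 in HT vehicle males. Its values were 8093, 7189, 8588, 6565 and 8039.7 in WT lithium males and 7832, 8404, 8496, 7573 and 7705 in WT vehicle males. The vehicle groups overlapped, with 7921 ± 368 (SD, n = 3) in HT males and 8002 ± 420.3 (SD, n = 5) in WT males, a difference smaller than either SD. A value summed over the whole gene does not separate the alleles and cannot check the genotype labels. All 4 HT lithium males lay above every other male library, and in females the level was 9279 ± 1147 (SD, n = 5) in HT lithium, 7524 ± 1032 (SD, n = 5) in HT vehicle, 7765 ± 476 (SD, n = 4) in WT lithium and 6909.8 ± 713 (SD, n = 5) in WT vehicle mice. The interaction was 0.29 ± 0.13 (adjusted p = 0.471 in limma) and was not called, with a lithium effect of 0.34 ± 0.09 in HT and 0.06 ± 0.09 in WT. After correction of each library for its trend with GC content and transcript length the interaction was 0.15 ± 0.12.

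The lithium effects of called genes mostly had the same sign in the 2 genotypes, and 3 genes differed between genotypes past the threshold. Lithium called 1761 genes in HT mice, 9.77% of those tested, with 913 higher (5.06%) and 848 lower (4.7%) than under vehicle. In WT mice it called 2109 genes, 11.7% of those tested, with 1271 higher (7.05%) and 838 lower (4.65%). Averaged over the genotypes it called 3907 genes, 21.7% of those tested, 2119 higher (11.8%) and 1788 lower (9.92%). The interaction called 3 genes, 0.0166% of those tested: Nkd1 and Vwa1 with a positive sign (0.0111%), meaning a more positive lithium effect in HT, and Nhsl2 with a negative sign (0.00555%). An unadjusted p below 0.05 was reached by 1712 genes where 5% of the genes tested would be 901.3. The count of 3 was 0 without HT lithium male replicate 4, HT vehicle male replicate 3, WT lithium female replicate 2, WT lithium male replicate 4 or WT vehicle male replicate 4, and 0 without the 2 libraries apart.

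Of the 1761 genes called in HT, 94.2% had the same sign in WT, and of the 2109 called in WT, 89.1% had the same sign in HT. The share with the same sign among all genes tested was not computed. The 689 genes called in both genotypes, 39.1% of the HT calls and 32.7% of the WT calls, all moved the same way, 442 up and 247 down. Of 1072 genes past the threshold in HT alone, 1 was called in the interaction, and of 1420 past it in WT alone, 2 were. Genes called higher in WT had a median lithium effect of 0.16 in HT and 0.24 in WT, and genes called lower in WT had medians of -0.13 in HT and -0.22 in WT. Genes called higher in HT had medians of 0.25 in HT and 0.18 in WT. A gene set chosen in 1 genotype has its effect there inflated by the choice, so these medians do not show a weaker response in either genotype. Across all genes tested the HT and WT effects had a Pearson correlation of 0.34, which was 0.36 in females and 0.10 in males, given as a description since genes are not independent replicates. For 86.9% of the genes the 95% interval of the interaction lay within 1 log2 unit either way, and the median SE was 0.13.

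**Figure D1:**
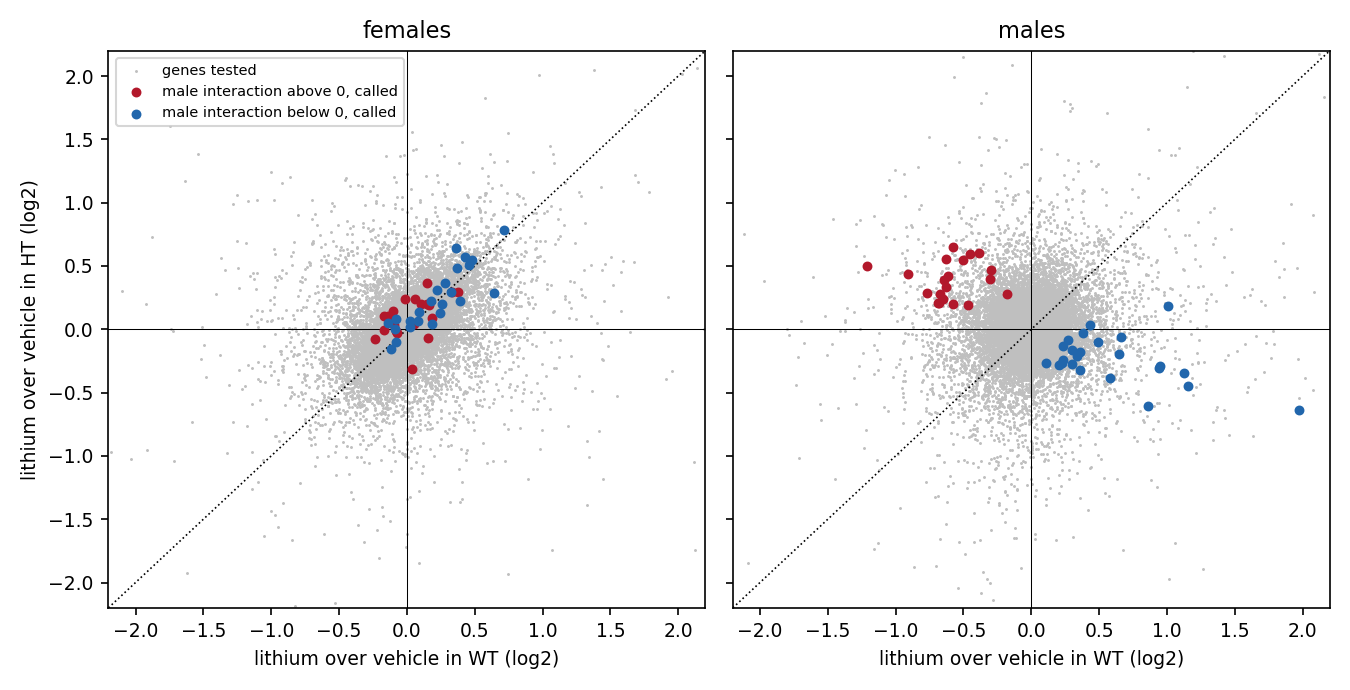
Log2 lithium over vehicle in HT mice (vertical) and in WT mice (horizontal) for females (left) and males (right), with 1 grey point per gene tested, a dotted line of equal effects, and the 44 genes of the male interaction in red (positive) and blue (negative). The coloured genes lie in the upper left or lower right of the male panel in 42 of 44 cases, which their selection favours, and 24 of the 44 have the same sign of interaction in females. The axes end at 2.2, beyond which 30 genes in females and 47 in males are not drawn.

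Nkd1 (ENSMUSG00000031661, chr8:88521354-88594884), a Wnt target that binds Dishevelled and dampens the pathway that induced it, had 609.6, 624, 631 and 681 normalised counts in HT lithium males and 531, 525 and 518 in HT vehicle males. In WT lithium males it had 509, 522, 439, 389 and 453, and in WT vehicle males 627, 742, 734, 808 and 778. Every HT lithium male was above every HT vehicle male, while every WT lithium male was below every WT vehicle male. In females the levels overlapped, with 656 ± 58.4 (SD, n = 5) in HT lithium, 608 ± 58.9 (SD, n = 5) in HT vehicle, 545 ± 63.9 (SD, n = 4) in WT lithium and 612 ± 70.4 (SD, n = 5) in WT vehicle mice. The interaction was 0.61 ± 0.11 (adjusted p = 0.0211 in limma), with a 95% interval of 0.39 to 0.84. The lithium effect was 0.19 ± 0.08 in HT, which was not called, and -0.42 ± 0.08 in WT (adjusted p = 0.000136).

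Vwa1 (ENSMUSG00000042116, chr4:155768149-155774698) encodes a matrix protein of basement membranes that binds perlecan. Its normalised counts were 872, 845, 851 and 997 in HT lithium males and 556, 619 and 525 in HT vehicle males, against 680.2, 689.7, 609, 533 and 577 in WT lithium males and 864, 943, 866, 1084 and 842 in WT vehicle males. The HT lithium and WT vehicle males were thus the high groups and did not overlap with the other male groups. Females showed no such crossing, with 921 ± 145 (SD, n = 5) in HT lithium, 793 ± 16.7 (SD, n = 5) in HT vehicle, 813 ± 173 (SD, n = 4) in WT lithium and 723 ± 61.1 (SD, n = 5) in WT vehicle mice. The interaction was 0.64 ± 0.12 (adjusted p = 0.0248 in limma), made of 0.43 ± 0.09 in HT (adjusted p = 0.00158) and -0.21 ± 0.08 in WT (adjusted p = 0.0892). With GC content and length corrected it was 0.56 ± 0.12, adjusted p = 0.143.

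Nhsl2 (ENSMUSG00000079481, chrX:101849385-102092055) belongs to the family of the Nance-Horan syndrome protein, regulators of actin at the cell edge. It had 2036, 1976, 1981 and 1865 normalised counts in HT lithium males and 2024, 2196 and 2114 in HT vehicle males, against 2059.7, 2297, 2208, 2482 and 2568 in WT lithium males and 1643, 1748, 1779, 1451 and 1628 in WT vehicle males. The HT male groups overlapped, whereas WT lithium males were above all WT vehicle males. In females the level was 1947 ± 118 (SD, n = 5) in HT lithium, 1669.9 ± 106 (SD, n = 5) in HT vehicle, 2254 ± 308 (SD, n = 4) in WT lithium and 1712 ± 115 (SD, n = 5) in WT vehicle mice. The interaction was -0.38 ± 0.07 (adjusted p = 0.0248 in limma), with a lithium effect of 0.06 ± 0.05 in HT and 0.44 ± 0.05 in WT (adjusted p = 6.84e-08). GC and length correction gave -0.32 ± 0.08, adjusted p = 0.34.

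**Figure D2:**
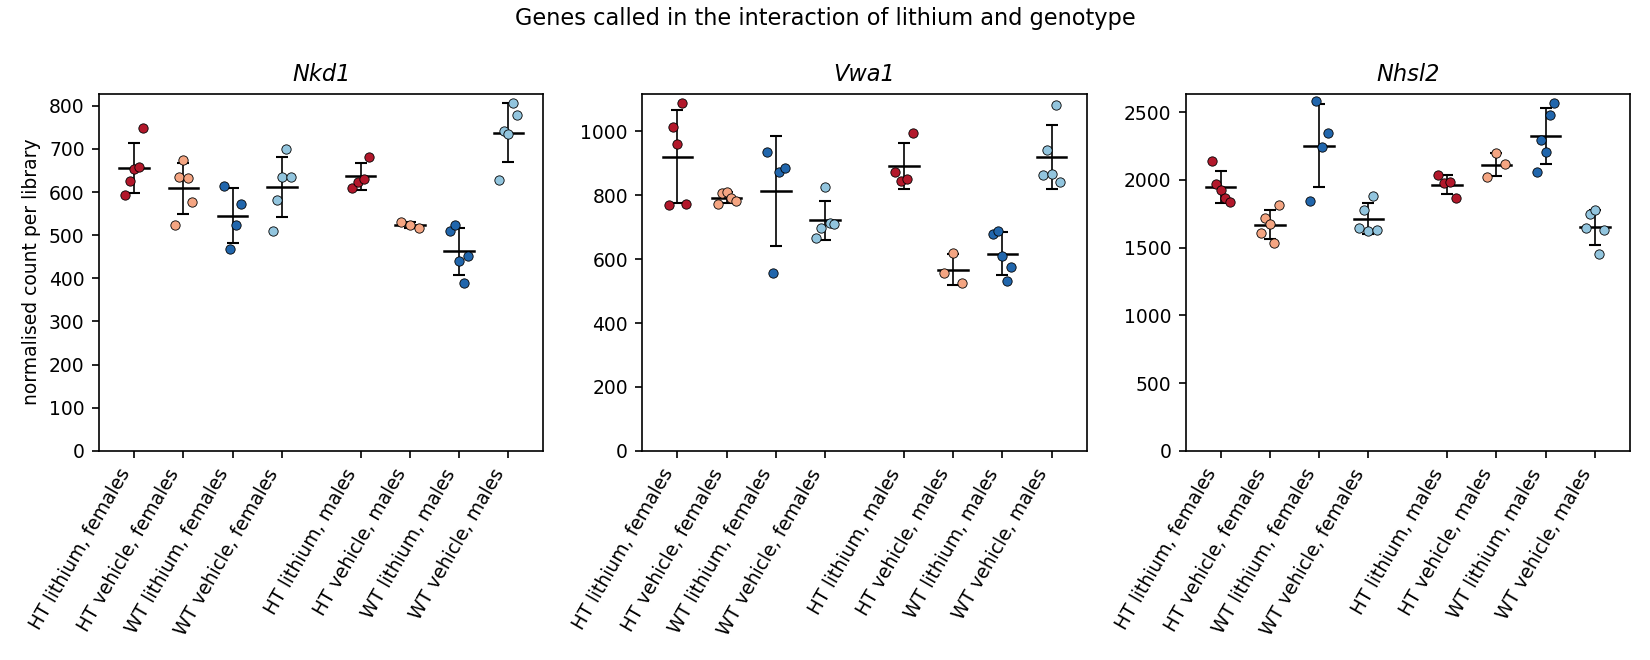
Normalised count per library (points) with the mean and SD (bar and whiskers) for Nkd1, Vwa1 and Nhsl2 in HT lithium, HT vehicle, WT lithium and WT vehicle mice, females left and males right in each panel, on axes from 0. In males Vwa1 averaged 891 in HT lithium and 567 in HT vehicle mice, and 618 in WT lithium and 920.0 in WT vehicle mice.

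None of the next genes by p passed the threshold, and their values are given as such. On the positive side stood Tek, the angiopoietin receptor of endothelial cells, at 0.61 ± 0.13 (adjusted p = 0.0972 in limma), and Pdgfrb, the growth factor receptor of pericytes, at 0.44 ± 0.10 (adjusted p = 0.169). Fzd9, a Wnt receptor, had 0.65 ± 0.16 and Btbd17 0.70 ± 0.17. The mitochondrial genes Acads, an acyl-CoA dehydrogenase of short chains, and Ndufaf2, an assembly factor of complex I, had 0.48 ± 0.11 and 0.42 ± 0.11. Cspg5, a proteoglycan, and Necap2, an endocytic adaptor, had 0.30 ± 0.07 and 0.29 ± 0.07. Rnaset2a had 0.60 ± 0.15, but it has a near-identical copy, so the assignment of its reads is uncertain. On the negative side Paqr5, a membrane progesterone receptor, had -0.79 ± 0.20, and Mgat4c, a glycosyltransferase, -0.54 ± 0.13. The ion transporters Slc8a1, the sodium-calcium exchanger, and Slc4a10, a bicarbonate transporter of neurons, had -0.42 ± 0.11 and -0.35 ± 0.09. Col4a3bp, which carries ceramide from the endoplasmic reticulum to the Golgi, had -0.27 ± 0.06, and Sesn1, a sestrin that restrains mTORC1, -0.25 ± 0.06. Adjusted p among these genes other than Tek ran from 0.169 to 0.282.

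**Figure D3:**
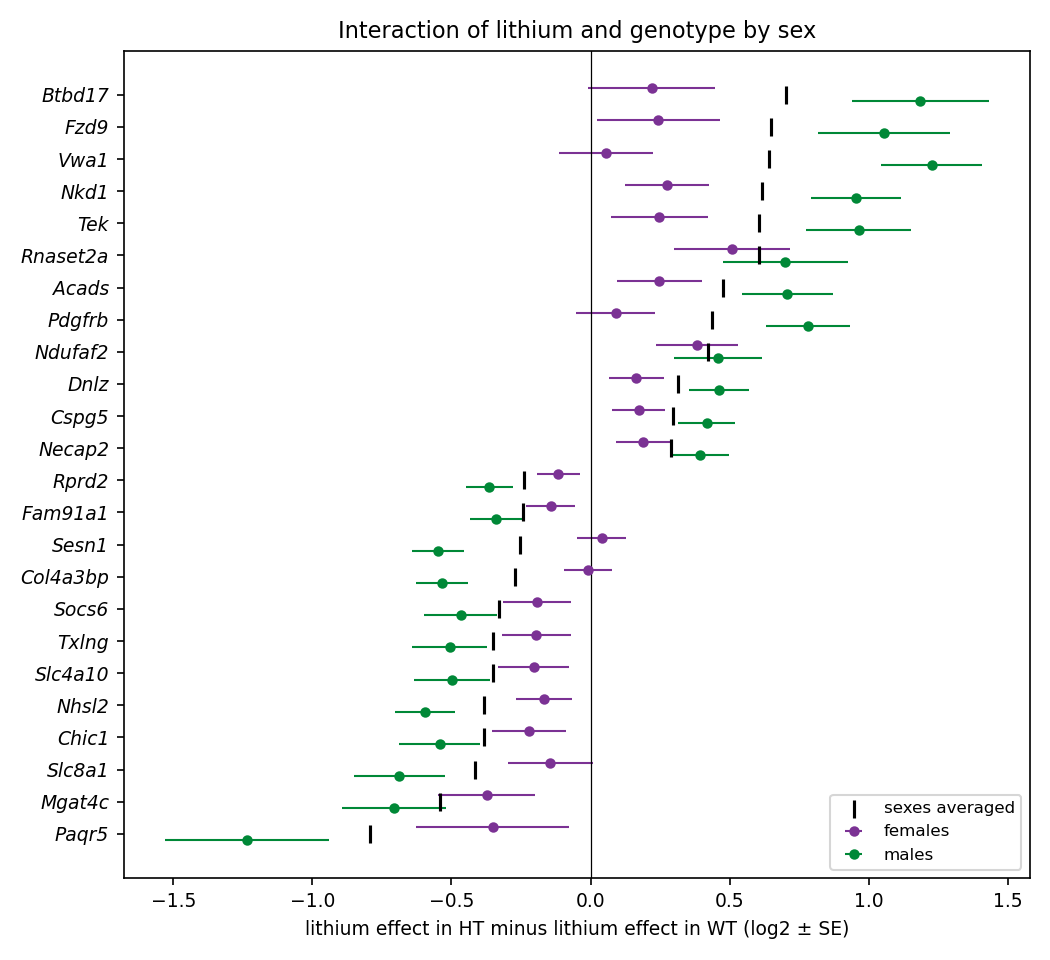
Interaction (lithium effect in HT minus lithium effect in WT, log2) with its SE in females and males, and the average of the sexes as a tick, for the 12 genes of smallest p on each side. Male values lie further from 0 than female values for each of the 24 genes, for example 1.23 against 0.06 for Vwa1, and for Rnaset2a and Ndufaf2 both sexes lie near the average, at 0.70 in males and 0.51 in females, and at 0.46 and 0.38.

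In males alone the interaction called 44 genes, 0.244% of those tested, 20 positive (0.111%) and 24 negative (0.133%). Of these, 34 were also called for lithium in WT males (2.3% of all genes) and 0 in HT males (0.0166%). Between genotypes in vehicle males 16 of the 44 were called (0.261% of all genes), Vwa1, Pdgfrb and Nhsl2 among them. The same libraries enter these comparisons, so the selection favours such overlap. In females the interaction called 0 genes in limma, with 503 at an unadjusted p below 0.05 and a smallest adjusted p of 0.999. With edgeR the female count was 0, and by DESeq2 4. The difference between the male and the female interaction was tested directly and called 0 genes in limma, with 1147 at an unadjusted p below 0.05 and a smallest adjusted p of 0.175, 0 by edgeR and 5 by DESeq2. So a dependence on sex was not established for any gene by the test used here. The male count also rests on few libraries. Leaving out HT vehicle male replicate 3 gave 6 genes, leaving out HT vehicle male replicate 2 or WT lithium male replicate 4 gave 9, and leaving out WT vehicle male replicate 1 gave 67. Between 10 and 19 genes were called without any single HT lithium male, WT lithium male replicate 5, or WT vehicle male replicate 3, 4 or 5. The lithium effect in HT males called 3 genes, 0.0166% of those tested, 1 higher (0.00555%) and 2 lower (0.0111%). That count was 0 with GC content and length corrected, 1 by edgeR, 41 by DESeq2, 23 with the olfactory covariate and 692 with array weights, so a list without calls in HT males says little about those males. In WT males it called 415, 2.3%, of which 272 were higher (1.51%) and 143 lower (0.793%). In HT females it called 1894, 10.5%, of which 1003 were higher (5.56%) and 891 lower (4.94%), and in WT females 1194, 6.62%, of which 694 were higher (3.85%) and 500 lower (2.77%). The HT male comparison set 4 libraries against 3, and the WT male comparison 5 against 5.

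Among the negative genes in males were targets of the glucocorticoid receptor, a nuclear receptor that stress hormones activate and that induces Fkbp5, Tsc22d3 and Zbtb16 in many tissues. Fkbp5 (ENSMUSG00000024222, chr17:28399094-28517527), a co-chaperone that lowers the affinity of the receptor for its hormone, had 944, 981, 1226 and 948 normalised counts in HT lithium males and 1318, 1274 and 1300.2 in HT vehicle males. It had 1784, 1550.1, 1454, 1988 and 1566 in WT lithium males and 1298, 613, 637, 701 and 705 in WT vehicle males. Lithium males lay below vehicle males in HT and above them in WT, with no overlap in either genotype. WT vehicle male replicate 1 stood far above the other WT vehicle males. The male interaction was -1.48 ± 0.28 (adjusted p = 0.0102 in limma), and it was -1.67 without that library. In females it was 0.14 ± 0.26, with effects of 0.57 ± 0.18 in HT and 0.43 ± 0.19 in WT.

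Sult1a1 (ENSMUSG00000030711, chr7:126672865-126676432), a sulfotransferase of phenols, had 253, 269, 255 and 235 normalised counts in HT lithium males and 404, 328 and 308 in HT vehicle males. WT lithium males had 426, 349.9, 292, 626 and 357, and WT vehicle males 327, 109.7, 143, 151 and 223. The HT lithium males formed a tight low group below all HT vehicle males, and the WT groups overlapped only through WT vehicle male replicate 1. The male interaction was -1.60 ± 0.33 (adjusted p = 0.0237 in limma). Zbtb16 (ENSMUSG00000066687), a zinc finger transcription factor, had 1272, 1412, 1354 and 1395 in HT lithium males and 1183, 1176 and 1226 in HT vehicle males, against 1592, 1389, 1483, 1694 and 1691 in WT lithium males and 1079, 857, 794, 595 and 650.1 in WT vehicle males. Unlike Fkbp5 it was higher under lithium in every male library of both genotypes, by 0.18 ± 0.14 in HT (not called) and 1.01 ± 0.12 in WT (adjusted p = 4.71e-07), with a male interaction of -0.82 ± 0.18 (adjusted p = 0.0352 in limma). In females Zbtb16 rose by 0.79 ± 0.12 in HT (adjusted p = 1.41e-05) and 0.72 ± 0.12 in WT (adjusted p = 0.000356).

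Of 26 glucocorticoid-responsive genes, these 3 were called in the male interaction and 0 in the opposite direction, with a median of -0.45 beside -0.01 for all genes tested. Of all genes tested 0.133% were called negative in it and 0.111% positive. In HT males 0 of the 26 were called under lithium (median -0.02), in a comparison that called 3 genes in all. In WT males 10 rose and 0 fell (median 0.33), where 1.51% of all genes rose and 0.793% fell. In females 7 rose in HT (median 0.24) and 3 in WT (median 0.16), where 5.56% and 3.85% of all genes rose. Tsc22d3, the leucine zipper protein GILZ, and Hif3a had male interactions of -0.71 and -1.37 that were not called (adjusted p = 0.0663 and 0.0804 in limma). Of the 26 members 5 were positive in the male interaction, and values ran from -2.48 for Lcn2 to 0.88 for Dusp1. The same male libraries enter the comparison of genotypes under vehicle, where HT exceeded WT by 0.77 ± 0.21 for Fkbp5 (not called), 0.96 ± 0.25 for Sult1a1 (not called) and 0.62 ± 0.14 for Zbtb16 (adjusted p = 0.0303), and under lithium HT was below WT by -0.70 ± 0.19, -0.64 ± 0.23 and -0.21 ± 0.12, none of them called. That comparison called 47 genes under vehicle, 0.261% of those tested, 28 higher (0.155%) and 19 lower (0.105%), and in limma 0 genes under lithium, with 2143 at an unadjusted p below 0.05. The list median in males was -0.48 with GC and length corrected.

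The promoter of Sult1a1 is shown because it held the short site searched for. The window runs from 250 bases before the annotated start to 50 after it in RefSeq, build GRCm38.p6, chr7:126676369-126676668 on the minus strand. Capitals mark TGTTCT, the hexamer that 1 partner of the glucocorticoid receptor dimer contacts, or its reverse complement, in 2 places.
Sult1a1: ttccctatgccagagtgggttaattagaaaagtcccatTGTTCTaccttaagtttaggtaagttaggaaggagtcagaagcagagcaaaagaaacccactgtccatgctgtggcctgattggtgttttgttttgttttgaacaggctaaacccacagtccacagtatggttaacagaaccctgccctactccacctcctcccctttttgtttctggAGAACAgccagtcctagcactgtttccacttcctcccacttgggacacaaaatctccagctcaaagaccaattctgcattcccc
This short motif was searched on both strands and is common: it occurred in 6157 of 32544 promoters (18.9%) and in 3 of the 17 promoters found for the 26 listed genes, the others being Tsc22d3 and Sgk1. A match is a description of the sequence and does not show binding.

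Among the positive genes in males were receptors and junction proteins of blood vessels. Tek (ENSMUSG00000006386, chr4:94739289-94874976) had 748, 502, 439 and 541 normalised counts in HT lithium males and 505, 365 and 440.5 in HT vehicle males, against 403, 395, 430.2, 299 and 329 in WT lithium males and 474, 540.4, 593, 619.6 and 637 in WT vehicle males. Pdgfrb (ENSMUSG00000024620, chr18:61045150-61085061) had 794, 771, 764 and 798 in HT lithium males and 721, 728 and 597 in HT vehicle males, against 661, 750.0, 682, 712 and 615 in WT lithium males and 890.0, 931, 1078, 1252 and 984 in WT vehicle males. HT lithium males were above HT vehicle males without overlap for Pdgfrb and overlapped them for Tek, and WT lithium males were below WT vehicle males without overlap for both genes. The male interactions were 0.96 ± 0.19 for Tek and 0.78 ± 0.15 for Pdgfrb, both with adjusted p = 0.0121 in limma. In females they were 0.25 ± 0.18 and 0.09 ± 0.14.

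Of 20 endothelial and mural genes, 4 were called in the male interaction, all positive: Tek, Pdgfrb, Tie1, the partner receptor of Tek (1.05), and Cldn5, the tight junction claudin of the blood-brain barrier (0.89). Of all genes tested 0.111% were called positive in it and 0.133% negative. The list median was 0.52 in males, -0.02 in females and 0.18 with the sexes averaged, beside -0.01, -0.01 and 0.00 for all genes. In HT males 0 members were called under lithium, where 0.0166% of all genes were. In WT males 4 fell and 1 rose, where 0.793% and 1.51% of all genes did. The medians were 0.22 in HT males and -0.22 in WT males. The riser in WT males was Slc2a1, the glucose transporter GLUT1, with 0.11 in HT and 0.44 in WT males, so the list did not move as a block. In females 4 members rose in HT and 5 in WT, where 5.56% and 3.85% of all genes did, with 0 falling in either. Further vascular genes among the 44, picked out after their values were seen, were Eng (0.99) and Acvrl1 (0.76), a co-receptor and a receptor of the BMP9 pathway of endothelium. The rest of the 44 were not sorted by cell type, so these picks do not show how vascular genes among them divide by sign.

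The mean level of the 20 vascular genes relative to the mean library was 1.09 ± 0.069 in HT lithium males (SD, n = 4) and 0.935 ± 0.078 in HT vehicle males (SD, n = 3), against 0.937 ± 0.049 in WT lithium males (SD, n = 5) and 1.10 ± 0.066 in WT vehicle males (SD, n = 5). Single libraries ran from 1.002 to 1.168 in HT lithium males and 0.8605 to 1.017 in HT vehicle males, against 0.868 to 1.006 in WT lithium males and 1.042 to 1.199 in WT vehicle males. Markers of red cells stood at 1.43 ± 0.168 in HT lithium males, 1.06 ± 0.204 in HT vehicle males, 1.01 ± 0.394 in WT lithium males and 1.03 ± 0.138 in WT vehicle males. Whether the vascular genes moved with the share of vessels or blood in the dissected piece was not tested.

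**Figure D4:**
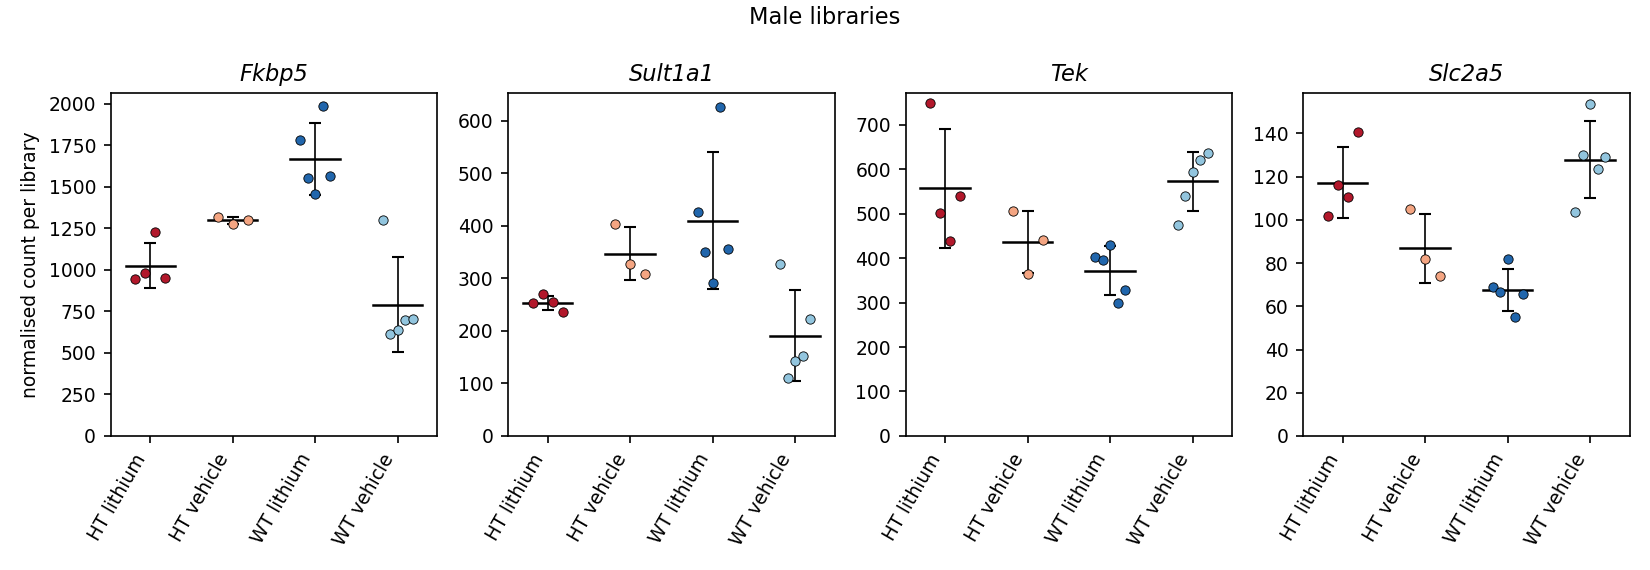
Normalised count per male library (points) with the mean and SD (bar and whiskers) for Fkbp5, Sult1a1, Tek and Slc2a5 in HT lithium, HT vehicle, WT lithium and WT vehicle males, on axes from 0. Fkbp5 averaged 1025 in HT lithium and 1298 in HT vehicle males and 1669 in WT lithium and 791 in WT vehicle males, and Slc2a5 averaged 117 and 86.8 in HT and 67.6 and 128 in WT males.

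Slc2a5 (ENSMUSG00000028976, chr4:150119283-150144169), a fructose transporter that microglia express in the brain, had 102, 116, 111 and 141 normalised counts in HT lithium males and 105, 81.7 and 73.8 in HT vehicle males, against 69.1, 66.7, 81.8, 54.9 and 65.5 in WT lithium males and 103, 129.8, 154, 124 and 129 in WT vehicle males. The HT groups overlapped, and WT lithium males lay below all WT vehicle males. The male interaction was 1.35 ± 0.27 (adjusted p = 0.0136 in limma). Of 20 microglial markers 0 were called in the male interaction, where 0.244% of all genes were. Their median was 0.28, and 17 of 20 were positive. Under lithium 0 of them were called in HT males, where 0.0166% of all genes were, and 4 fell in WT males, where 0.793% of all genes did. The relative level of the 20 markers was 1.04 ± 0.078 in HT lithium males, 1.01 ± 0.069 in HT vehicle males, 0.925 ± 0.072 in WT lithium males and 1.09 ± 0.055 in WT vehicle males.

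Of all genes tested, 0.133% were called negative in the male interaction. Of 31 genes of AKT, mTOR and TSC signalling, 2 were called in it, both negative, Sesn1 and Pik3r1, and the list median was -0.06. Of 22 genes of the sodium pump and chloride transport 1 was called, Slc8a1, also negative, and the list median was 0.02. Sesn1 (ENSMUSG00000038332, chr10:41809935-41908424) had 1423, 1542, 1612 and 1563 normalised counts in HT lithium males and 1774, 1722 and 1836 in HT vehicle males, against 1817, 2093, 1922, 1954 and 1848 in WT lithium males and 1670.2, 1460.2, 1435, 1493 and 1574 in WT vehicle males. Lithium males lay below vehicle males in HT and above them in WT without overlap. The male interaction was -0.55 ± 0.10 (adjusted p = 0.00233 in limma), and the female one 0.04 ± 0.09. Col4a3bp (ENSMUSG00000021669, chr13:96542618-96640167) had 1962, 1999, 2083 and 2024 in HT lithium males and 2152, 2215 and 2479 in HT vehicle males, against 2187, 2246, 2203, 2801 and 2472 in WT lithium males and 1950.4, 1984, 1766, 1679.7 and 1879.9 in WT vehicle males. Its groups were likewise apart in both genotypes, in opposite directions, with a male interaction of -0.53 ± 0.09 (adjusted p = 0.00233 in limma). GC and length correction reduced it to -0.35 ± 0.08, adjusted p = 0.0667. Pik3r1, the regulatory subunit of PI3-kinase, and Slc8a1 were called in males at -0.36 and -0.69.

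The male groups also differed in library measures. The slope of log2 values with GC content, per 10 percentage points, was 0.059 ± 0.072 in HT lithium males (SD, n = 4) and -0.068 ± 0.075 in HT vehicle males (SD, n = 3), against -0.015 ± 0.076 in WT lithium males (SD, n = 5) and 0.065 ± 0.056 in WT vehicle males (SD, n = 5). The groups with the higher slopes were HT lithium and WT vehicle males, in which Vwa1, Pdgfrb and Tek were also high. With GC content and length corrected, their male interactions were 1.08 ± 0.17, 0.72 ± 0.15 and 1.04 ± 0.19. All 3 were still called (adjusted p = 0.00205, 0.0181 and 0.00495 in limma). Whether the slope and these genes are linked was not tested. With GC content and length corrected the male count was 22 genes and the count for the averaged sexes 1, which was Nkd1. The level of 5 olfactory bulb markers relative to the mean library was 0.145 ± 0.071 in HT lithium males, 0.553 ± 0.489 in HT vehicle males, 1.15 ± 0.864 in WT lithium males and 1.14 ± 0.770 in WT vehicle males. With the olfactory level as a covariate the male count was 107 and the averaged count 9. Fkbp5, Nkd1, Sesn1 and Vwa1 kept their male calls in each of the 48 alternative fits, those without single libraries included.

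Among genes of the pathways that lithium acts on directly, Nkd1 was the 1 gene called in the interaction. Of 34 genes of GSK3, beta-catenin and Wnt feedback, 1 was called in the interaction, where 0.0166% of all genes were. The median was 0.08 for the list and 0.00 for all genes. In males Nkd1 was again the 1 member called, where 0.244% of all genes were. Male values ran from -1.085 for Lgr5 to 1.193 for Sp5, so members of the list lay on both sides. Gsk3a and Gsk3b had interactions of 0.07 and -0.05, not called. Ctnnb1, which encodes beta-catenin, fell in both genotypes, by 0.25 ± 0.05 in HT (adjusted p = 0.000292) and 0.27 ± 0.04 in WT (adjusted p = 2.77e-05) on the log2 scale, with an interaction of 0.01. In each genotype 3 members of the list rose and 2 fell. Of all genes tested 5.06% rose and 4.7% fell in HT, and 7.05% rose and 4.65% fell in WT, so the list lay near those shares. Dvl3, a Dishevelled protein, rose by 0.16 ± 0.05 in HT (adjusted p = 0.0171) and 0.16 ± 0.04 in WT (adjusted p = 0.00761).

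None of 28 genes of inositol recycling and uptake was called in the interaction, whose members ranged from -0.30 for Slc5a3 to 0.19 for Dgkz around a median of -0.03. Isyna1, which makes inositol phosphate from glucose phosphate, rose by 0.31 ± 0.09 in HT (adjusted p = 0.0175) and 0.27 ± 0.08 in WT (adjusted p = 0.0229). Slc5a3, the sodium-coupled inositol transporter, had 766 ± 52.0 normalised counts in HT lithium males (SD, n = 4) and 725 ± 84.4 in HT vehicle males (SD, n = 3), against 783 ± 69.8 in WT lithium males (SD, n = 5) and 559 ± 86.7 in WT vehicle males (SD, n = 5). In females it had 830.3 ± 75.1 in HT lithium (SD, n = 5), 679 ± 91.7 in HT vehicle (SD, n = 5), 903 ± 88.9 in WT lithium (SD, n = 4) and 648 ± 91.5 in WT vehicle mice (SD, n = 5). Its lithium effect was 0.19 ± 0.09 in HT, not called, and 0.49 ± 0.09 in WT (adjusted p = 0.000136), and its interaction was -0.30 ± 0.13, adjusted p = 0.465 in limma, or -0.17 ± 0.12 with GC content and length corrected. Slc5a3 lies in the same locus as Mrps6, so their reads may be shared. Impa1, the inositol monophosphatase that lithium inhibits, had -0.14 ± 0.05 in HT and 0.10 ± 0.05 in WT, and an interaction of -0.24 ± 0.07, adjusted p = 0.292. Impa2, Inpp1 and Bpnt1 had interactions of 0.02, -0.12 and -0.06.

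The endoplasmic reticulum stress response raises chaperones when unfolded proteins build up. Of 30 genes of this response, 14 rose and 1 fell in HT, and 12 rose and 0 fell in WT, with median effects of 0.16 in HT and 0.12 in WT. Of all genes tested 5.06% rose and 4.7% fell in HT, and 7.05% rose and 4.65% fell in WT. The interaction called 0 of them in limma, ranged from -0.19 for Dnajb9 to 0.40 for Trib3, and had a median of 0.00 with the sexes averaged and in males. Dnajb9, a co-chaperone of the same pathway, was the member that fell in HT (-0.20, adjusted p = 0.0375). Sdf2l1, a component of the chaperone complex of the endoplasmic reticulum, had 381, 387, 436 and 324 normalised counts in HT lithium males and 215, 245 and 199 in HT vehicle males, against 324, 359, 356, 237 and 371 in WT lithium males and 235, 224, 214, 209 and 216 in WT vehicle males. Lithium libraries exceeded vehicle libraries without overlap in both male groups, with effects of 0.68 ± 0.12 in HT (adjusted p = 0.000227) and 0.53 ± 0.11 in WT (adjusted p = 0.000993) over the sexes. Syvn1, the ubiquitin ligase HRD1, rose by 0.29 ± 0.05 in HT (adjusted p = 0.00027) and 0.25 ± 0.05 in WT (adjusted p = 0.000255). Dnajc3, an inhibitor of the kinase PERK, rose by 0.22 ± 0.06 and 0.33 ± 0.06, and Calr, the chaperone calreticulin, by 0.28 ± 0.06 and 0.18 ± 0.05, HT before WT.

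The promoters of Calr, Dnajc3 and Syvn1 are shown because these genes rose in both genotypes and their promoters held a full endoplasmic reticulum stress element. The element, CCAAT and CCACG with 9 bases of any kind between them, is the site of the factors ATF6 and NF-Y, and capitals mark it on whichever strand it lay. The windows are from RefSeq, build GRCm38.p6, each 300 bases long: chr8:84846882-84847181 on the minus strand for Calr, with the element at -162, chr14:118937682-118937981 on the plus strand for Dnajc3, with the element at -105, and chr19:6046326-6046625 on the plus strand for Syvn1, with the element at -44.
Calr: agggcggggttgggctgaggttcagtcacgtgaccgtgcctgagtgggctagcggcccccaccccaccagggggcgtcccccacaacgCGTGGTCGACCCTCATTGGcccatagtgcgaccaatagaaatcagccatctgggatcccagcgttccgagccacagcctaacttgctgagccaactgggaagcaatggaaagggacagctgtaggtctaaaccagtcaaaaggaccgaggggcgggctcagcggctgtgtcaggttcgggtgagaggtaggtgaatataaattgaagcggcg
Dnajc3: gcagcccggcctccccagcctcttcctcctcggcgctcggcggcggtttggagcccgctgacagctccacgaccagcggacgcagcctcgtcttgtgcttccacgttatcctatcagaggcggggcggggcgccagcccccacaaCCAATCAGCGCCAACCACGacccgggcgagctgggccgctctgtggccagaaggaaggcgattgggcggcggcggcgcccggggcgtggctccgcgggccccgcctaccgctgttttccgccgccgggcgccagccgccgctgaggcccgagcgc
Syvn1: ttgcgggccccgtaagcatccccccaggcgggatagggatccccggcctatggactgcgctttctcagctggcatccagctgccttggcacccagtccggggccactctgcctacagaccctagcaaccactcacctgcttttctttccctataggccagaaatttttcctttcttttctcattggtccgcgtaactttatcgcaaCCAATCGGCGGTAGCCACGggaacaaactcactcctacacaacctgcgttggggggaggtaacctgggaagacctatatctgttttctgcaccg
On both strands the element occurred in 39 of 32544 promoters (0.12%), and in 9 of the 26 promoters found for the 30 listed genes. These genes are known for this element, so the count describes the list and not the effect of lithium.

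The members of synaptic lists that lithium called are given beside the shares of all genes tested. Those shares were 5.06% higher and 4.7% lower in HT, and 7.05% higher and 4.65% lower in WT. Within a genotype, the counts of 0 or 1 in the 2 receptor lists lie near those shares. Of 16 GABA receptor genes 0 rose and 1 fell in HT and 0 were called in WT, with median effects of -0.11 in HT and -0.03 in WT. Of 25 ionotropic glutamate receptor genes 1 rose and 1 fell in HT, and 1 rose and 0 fell in WT. Averaged over the genotypes 0 GABA receptor genes rose and 3 fell, and 2 ionotropic glutamate receptor genes rose and 3 fell. Of all genes tested 11.8% rose and 9.92% fell in that comparison. Of 35 postsynaptic density scaffolds 10 rose and 1 fell in HT, 9 rose and 0 fell in WT, and 0 were called in the interaction, whose median was 0.05. Shank1, a relative of Shank3, had 0.52 ± 0.09 in HT (adjusted p = 0.000151) and 0.21 ± 0.08 in WT (adjusted p = 0.0905), with an interaction of 0.31, adjusted p = 0.417. Sipa1l3 rose by 0.28 ± 0.06 in HT (adjusted p = 0.0021) and 0.32 ± 0.06 in WT (adjusted p = 0.000136). Among 36 presynaptic genes 7 rose and 1 fell in HT, and 5 rose and 0 fell in WT, including Bsn, the active zone protein bassoon (0.40 ± 0.10 in HT, 0.43 ± 0.09 in WT), and Sv2a, a vesicle glycoprotein (0.22 ± 0.05 in HT, 0.25 ± 0.04 in WT). Of 40 voltage-gated channels 6 rose in HT and 10 in WT with 0 falling, among them the T-type calcium channel Cacna1i (0.33 ± 0.06 in HT, 0.20 ± 0.05 in WT). The clock gene Per2 rose by 0.42 ± 0.10 in HT (adjusted p = 0.00307) and 0.58 ± 0.09 in WT (adjusted p = 1.77e-05).

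The 10 largest rises and 10 largest falls shared by the genotypes, by the mean of the 2 effects among genes called in both, included genes of varied function. Noxred1, an oxidoreductase, rose by 0.86 ± 0.19 in HT (adjusted p = 0.00224) and 1.17 ± 0.18 in WT (adjusted p = 1.08e-05), Dok3, an adaptor of immune cells, by 0.71 ± 0.13 and 0.61 ± 0.12, and Vgf, a neuropeptide precursor, by 0.66 ± 0.14 and 0.47 ± 0.13. Rasd1, a Ras-like protein that dexamethasone induces, rose by 0.43 ± 0.13 in HT and 0.72 ± 0.12 in WT. Among those that fell, Pnck, a calmodulin-dependent kinase, had -0.38 ± 0.07 in HT (adjusted p = 0.000511) and -0.39 ± 0.07 in WT (adjusted p = 0.000102), Cd180, a Toll-like receptor relative of immune cells, -0.49 ± 0.16 in HT and -0.82 ± 0.15 in WT, and Cdc42ep3, an effector of CDC42, -0.28 ± 0.07 in HT and -0.45 ± 0.07 in WT. The interactions of these 7 genes lay between -0.31 for Noxred1 and 0.33 for Cd180, none of them called.

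**Figure D5:**
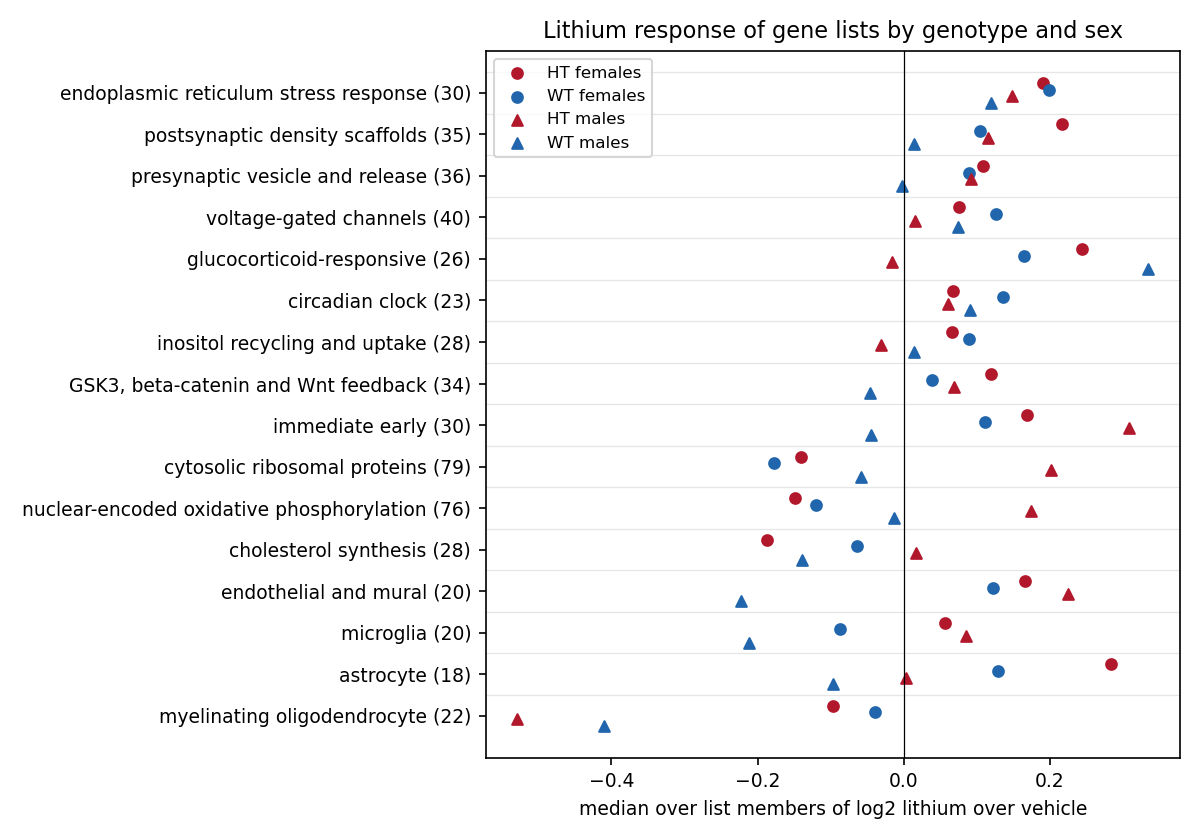
Median log2 lithium over vehicle of 16 gene lists (number of genes in brackets) in HT females, WT females, HT males and WT males. The endoplasmic reticulum stress genes lie between 0.12 and 0.20 in all 4 groups, whereas the glucocorticoid-responsive genes lie at -0.02 in HT males and 0.33 in WT males, and the endothelial and mural genes at 0.22 in HT males and -0.22 in WT males.

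In some lists most members had the same sign of interaction with the sexes averaged, while 0 members were called. Those shares are descriptions, since members of a list are not independent. For the counts of called members, lithium called 5.06% of all genes higher and 4.7% lower in HT. In WT it called 7.05% higher and 4.65% lower. By sex it called 5.56% higher and 4.94% lower in HT females, and 3.85% and 2.77% in WT females. In HT males it called 0.0166% in all, and in WT males 1.51% higher and 0.793% lower. Of 79 cytosolic ribosomal protein genes, 70 were positive, with a median of 0.15 over the sexes and 0.27 in males. With the sexes averaged 2 of them rose and 2 fell in HT, and 0 rose and 20 fell in WT. In females 0 rose and 14 fell in HT (median -0.14), and 0 rose and 17 fell in WT (median -0.18). In males 0 were called in either genotype, with medians of 0.20 in HT and -0.06 in WT. The female interaction had a median of 0.04. The averaged interactions ran from -0.07 for Rpl12 to 0.38 for Rps27. Ribosomal protein genes have many processed copies in the genome, so their read assignment is uncertain. Of 30 immediate early genes, which neuronal activity induces, 25 were positive, with a median of 0.25 in HT and -0.02 in WT. Egr2 had the highest interaction at 1.12, not called, and Ier2 had 0.06 ± 0.20 in HT and fell in WT (-0.61 ± 0.18, adjusted p = 0.0216). Of 18 astrocyte markers, 17 were positive (median 0.12), with 4 rising in HT and 3 rising and 1 falling in WT. Of 28 cholesterol synthesis genes 0 were called lower in HT and 5 in WT with the sexes averaged. By sex 4 were called lower in HT females and 2 in WT females, and 0 in males of either genotype. Median effects of the list were -0.07 in HT and -0.11 in WT, and the interaction median was 0.07. Insig1, a sterol sensor partner, had -0.18 ± 0.07 in HT and -0.32 ± 0.06 in WT. Of 31 genes of AKT, mTOR and TSC signalling 2 rose in HT and 10 rose and 2 fell in WT, Tsc2 rising in both (0.21 ± 0.05 in HT, 0.23 ± 0.04 in WT), with 8 of 31 interactions positive. By sex 6 members of that list rose and 0 fell in HT females, and 5 rose and 1 fell in WT females. In males 0 were called in HT, and 3 rose and 0 fell in WT. Deep-layer neuron markers were positive in 1 of 14 cases (median -0.15). Choroid plexus markers had a median of -0.55, with Ttr, the thyroxine carrier of that epithelium, at -3.02, none called. HT vehicle female replicate 1 is the library described above with high levels of these markers. In males, where that library does not enter the difference, Ttr had -2.42 and the list a median of -0.15. In females these were -3.61 and -1.06.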

How the data were processed

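Per the submitters' processing notes, reads were handled with Salmon 0.11.2, R 3.6.0 and DESeq2 1.19.11 on GRCm38. Which step each tool served is unstated in those notes. Libraries were made with a stranded poly-A kit, per the labels' protocols. The deposited values are a signal per gene, read counts that the authors divided by a size factor of the library, for 18088 genes, of which 3 were at 0 throughout. Of 59 columns 56 matched a sample, 3 were not used, and 1 labelled WT lithium female had no column analysed here. Whole reads were recovered from 100% of the values (within 1e-06), 22984556 to 35969254 per library. No replicate pair of 105 agreed within counting noise (lowest chi-square per degree of freedom 4.94).

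The 18026 genes that reached a value of 10 in 3 or more libraries were analysed on log2(value + 1) with limma 3.58.1 (R 4.3.3), with a mean-variance trend. All 12 groups of genotype, drug and sex, fluoxetine included, shared 44 residual degrees of freedom. P-values were adjusted by Benjamini-Hochberg over all genes tested. Alternatives used edgeR 4.0.16 (quasi-likelihood, TMM) and DESeq2 1.42.0 on recovered reads, and limma with other scaling, filters, weights, covariates or libraries. The fits were tested on simulated data. Descriptions used Python 3.11.15, pandas 2.3.3 and matplotlib 3.10.9.

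The text names Shank3 and set lithium targets, the 12 genes of smallest interaction p on each side, up to 5 male calls of smallest p in each direction, up to 3 genes per list by interaction p and up to 4 by lithium effect, and the 10 largest shared rises and falls. Predicted genes, Riken clones and pseudogenes were left out. Cldn5, Tsc22d3 and the genes at the ends of ranges fall outside that rule and were chosen after their values were seen. The comparison, the lists and the tests were chosen with earlier results of these data known. RefSeq promoters (GRCm38.p6) were found for 45 of 64 genes looked up. Some results are not reported here.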

Additional observations from a re-analysis of the deposited data

Results flagged for a closer look

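Single libraries stood far from the rest of their group for genes reported above. Fkbp5 had 1226.37 normalised counts in HT lithium male replicate 3 and 1297.52 in WT vehicle male replicate 1, each the highest of its group, and the second of these lies on the side of the WT lithium males. Vwa1 had 557.36 in WT lithium female replicate 2 and 826.81 in WT vehicle female replicate 3.

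Summed marker levels also set single libraries apart. HT vehicle female replicate 1 was high in choroid plexus markers (78562.2 normalised counts) and apart in thalamic markers (4783.0). Other such sums were 72812.1 for interneuron markers in WT vehicle male replicate 1, 17473.4 for endothelial and mural markers in WT vehicle female replicate 5, 20778.2 for microglial markers in HT vehicle female replicate 3, and 38618.0 for oligodendrocyte progenitor markers in WT lithium female replicate 1. Of 175 groups of values examined in this way, over 12 genes and 13 marker lists, 10 held such a library, and chance gives about 1 in 20.

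The lithium effect differed between genotypes by a direct test for Nkd1 (0.61), Vwa1 (0.64) and Nhsl2 (-0.38) with the sexes averaged. In males it did so for Vwa1 (1.23), Nkd1 (0.95), Tek (0.96), Pdgfrb (0.78) and Slc2a5 (1.35) on the positive side, and for Sesn1 (-0.55), Col4a3bp (-0.53), Nhsl2 (-0.60), Fkbp5 (-1.48) and Sult1a1 (-1.60) on the negative side.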

How the results depend on the processing

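Counts of called genes moved with several choices, and the cause was not tested. For the interaction with the sexes averaged (3 genes), DESeq2 gave 13, array weights 33, the olfactory covariate 9, GC and length correction 1, and leaving out the 2 libraries apart 0. For the male interaction (44) these gave 124, 403, 107, 22 and 67, and a fit of the 8 lithium and vehicle groups alone gave 23. DESeq2 gave 4 genes in females and 5 for the difference between the sexes, for which array weights gave 7. Array weights gave 3452 genes for lithium in HT, 3349 in WT, 4155 in HT females, 692 in HT males, 2041 in WT females and 1088 in WT males. The olfactory covariate gave 2886 in HT, 3365 in WT, 23 in HT males, 2138 in WT females and 980 in WT males. GC and length correction gave 418 in HT, 705 in HT females, 0 in HT males and 400 in WT females. In HT males (3) DESeq2 gave 41, and edgeR, TMM factors, no trend and the 8 groups alone gave 1 each.

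Replicate numbers did not pair the libraries: the median correlation of deviations was 0.0002 for 115 pairs of the same number and 0.0014 for 450 pairs of different numbers. With the replicate number as a block the male interaction called 27 genes, the averaged interaction 3, the female interaction 0 and lithium in HT males 1.

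Leaving out each library in turn gave 0 to 5 genes for the averaged interaction, 0 to 0 in females, 6 to 67 in males and 0 to 1 for the difference between the sexes (1 without WT lithium female replicate 2). The averaged count was 0 without HT lithium male replicate 4, HT vehicle male replicate 3, WT lithium female replicate 2, WT lithium male replicate 4 or WT vehicle male replicate 4. It was 1 without HT lithium female replicate 2, HT vehicle female replicate 5, WT lithium male replicate 5 or WT vehicle female replicate 3 or 5, and 5 without HT vehicle male replicate 1. The male count was 19, 14, 10 and 10 on leaving out HT lithium males 1 to 4 in turn. It was 9 without HT vehicle male replicate 2, 6 without replicate 3 of that group, 9 without WT lithium male replicate 4 and 19 without replicate 5 of that group. Leaving out WT vehicle males 1, 3, 4 and 5 in turn gave 67, 13, 10 and 16. Lithium called 995 to 1958 genes in HT (lowest without HT vehicle male replicate 3) and 1561 to 2416 in WT. By sex it called 1245 to 2065 in HT females (lowest without HT vehicle female replicate 3), 0 to 5 in HT males, 485 to 1421 in WT females (485 without WT lithium female replicate 4, 795 without replicate 2) and 143 to 512 in WT males. The WT male count was 143 without WT lithium male replicate 4, and 177, 184 and 230 on leaving out WT vehicle males 3, 4 and 5 in turn.

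Over 48 alternative fits, the sign held for the averaged interaction of Nkd1, Vwa1 and Nhsl2 and for the male interaction of these 3 and of Tek, Pdgfrb, Slc2a5, Fkbp5, Sult1a1, Sesn1 and Col4a3bp. Other male calls and the lithium effects of single genes were not refitted gene by gene. The averaged call was lost in 6 for Nkd1 (adjusted p up to 0.0799), 12 for Vwa1 (up to 0.143) and 15 for Nhsl2 (up to 0.34). The male call was lost in 8 for Sult1a1 (up to 0.0749), 3 for Slc2a5 (up to 0.105), 2 for Tek (up to 0.0714), and 1 each for Pdgfrb (0.113, without HT vehicle male replicate 3), Col4a3bp (0.0667) and Nhsl2 (0.0587). The number of HT vehicle males, 3, limits the male comparison.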
